A study of Mus musculus with 6 samples.

Results

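The interferon-induced GTPases of the mouse were followed through liver metastases of 4T1 cells, comparing tumours whose injected cells had Zdhhc17 silenced with tumours of control cells. The set holds 10 genes, taken by symbol from the 24167 genes of the count table: the guanylate-binding protein genes Gbp2, Gbp3, Gbp4, Gbp5, Gbp6 and Gbp7, and the immunity-related GTPase genes Igtp, Irgm1, Irgm2 and Iigp1. All 10 were in the table and all 10 passed the filter on low counts. The 4T1 line is a murine triple-negative breast cancer line. Its cells carried either a hairpin against Zdhhc17 (shZdhhc17), a palmitoyltransferase gene, or a scrambled hairpin (shSCR), delivered by lentivirus and selected with puromycin. Female BALB/c mice, 6 to 8 weeks old, received 500000 cells by hydrodynamic tail vein injection, and metastases were cut out of the livers under a microscope on day 10. There were 3 libraries of polyadenylated RNA per group. The labels count 3 mice per group but do not tie a library to a mouse, and the p-values therefore describe only how far these libraries differ from each other. The tissue mixes hairpin-bearing tumour cells with host liver and immune cells that carry no hairpin.

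Guanylate-binding proteins and immunity-related GTPases are large GTPases that cells make in response to interferons, above all interferon gamma. They gather on the membranes of vacuoles that hold microbes, break them open and pass the contents on to inflammasomes and to autophagy proteins. Interferon gamma acts through its receptor and the kinases JAK1 and JAK2, and its signal reaches promoters through DNA motifs called GAS elements and interferon-stimulated response elements (ISREs). IRF1, itself induced by interferon gamma, binds ISREs. In liver, T cells and natural killer cells are the known sources of interferon gamma, and most cell types can respond.

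The promoters of these genes carry the letters that such factors read, so the stretches that hold them are shown first. RefSeq windows of 250 bases before to 50 bases after an annotated start (build GRCm38.p6, another build than the GRCm39 of the counts) were matched by symbol for 7 of the 10 genes; Gbp4, Gbp6 and Iigp1 had none. Both strands were searched for the core of an ISRE, GAAANNGAAA, and for a GAS element, TTCNNNGAA. Matches may overlap. Capitals mark ISRE and GAS matches, and each stretch runs 5′ to 3′ on the strand of its gene with 25 flanking bases on either side of the ISRE.
Gbp2, chr3:142620579-142620638 (+): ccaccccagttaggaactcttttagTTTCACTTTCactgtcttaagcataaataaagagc
Gbp3, chr3:142559974-142560039 (+): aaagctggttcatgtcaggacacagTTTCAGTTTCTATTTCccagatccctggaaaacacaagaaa
Gbp5, chr3:142496744-142496803 (+): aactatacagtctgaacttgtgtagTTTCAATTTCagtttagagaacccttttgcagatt
Gbp7, chr3:142530258-142530317 (+): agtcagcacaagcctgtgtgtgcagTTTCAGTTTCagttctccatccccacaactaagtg
Igtp, chr11:58199497-58199556 (+): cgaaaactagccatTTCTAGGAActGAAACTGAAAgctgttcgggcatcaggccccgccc
Irgm1, chr11:48871410-48871475 (-): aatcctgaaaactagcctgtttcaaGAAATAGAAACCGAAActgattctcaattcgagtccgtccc
Irgm2, chr11:58214888-58214947 (+): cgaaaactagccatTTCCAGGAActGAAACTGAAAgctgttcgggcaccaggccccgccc

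All 7 genes with a window held the ISRE letters, against 3.99% of 27025 genes with a window. The 4 guanylate-binding protein genes carried them on the opposite strand, where the stretches show the reverse complement, and the 3 immunity-related GTPase genes on the strand of the gene. Matches began 24 to 64 bases before the start in 6 genes and 165 bases before it in Gbp5. In Gbp3 and Irgm1 a pair of matches overlapped, and the other window of Gbp3, from a different start, had none. The GAS letters were in 4 of the 7 (Gbp5, Gbp7, Igtp and Irgm2), against 9.55% of all genes. In Igtp and Irgm2, neighbours on chromosome 11, the GAS letters stood just before the ISRE; those of Gbp5 and Gbp7 lay outside the stretches shown. A match is a description of the letters and not evidence of binding, and the genes were listed here for being interferon-induced.

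**Figure D1:**
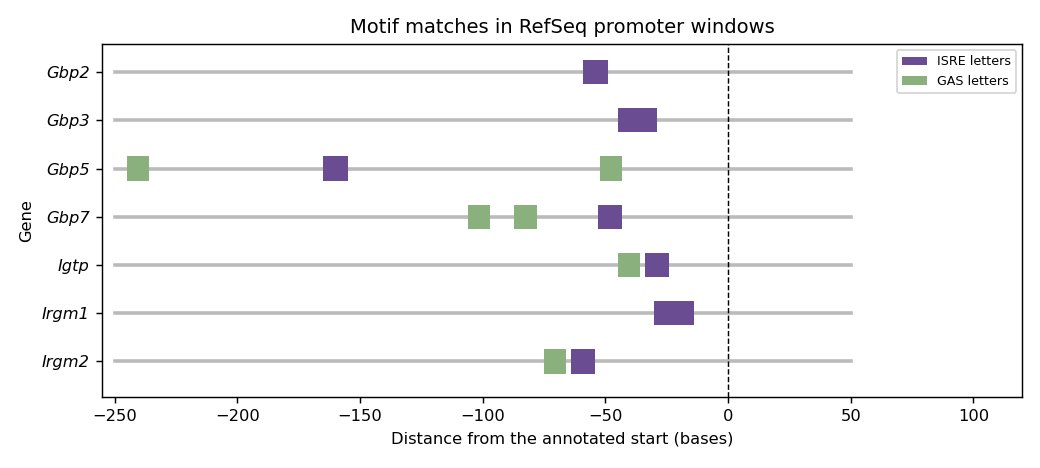
Positions of ISRE (purple) and GAS (green) letters in the promoter windows of the 7 genes, with distance from the annotated start in bases on the x axis and 1 gene per row. ISRE matches begin 24 to 64 bases before the start in every gene shown except Gbp5, where it begins 165 bases before it.

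Total counts ran from 15832837 to 18234406 in shZdhhc17 and from 16129825 to 19186615 in shSCR libraries, and the GTPase genes took between 22 and 11419 reads each per library. Levels are given in CPM, the reads of a gene scaled to a library size that edgeR normalized by TMM. The targeted gene, Zdhhc17, had 25.9, 27.8 and 26.0 CPM in the shZdhhc17 libraries, against 33.7, 32.4 and 34.2 CPM in the shSCR libraries. Its groups did not overlap, and its log2 fold change was -0.33 with an SE of 0.11 (edgeR adjusted p = 0.383). Libraries within a group were not alike. A principal component analysis set shSCR replicate 3 apart: its first axis (47.8% of variance) had that library at 54.8, with the remaining 5 in the range -28.4 to 9.31. Genes listed as markers of hepatocytes, led by Alb, and of mammary carcinoma, led by Krt18, were present in every library. Keratin genes such as Krt18 do not by themselves tell tumour from liver cells.

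The guanylate-binding protein genes differed several-fold between libraries of the same group, and the groups overlapped in each of them. Gbp2, whose product coats vacuoles of Toxoplasma in mouse cells, had 65.8, 146 and 165 CPM in shZdhhc17 replicates 1, 2 and 3, against 77.3, 174 and 529 CPM in shSCR replicates 1, 2 and 3. Gbp5, whose product promotes assembly of the NLRP3 inflammasome in mouse macrophages, measured 5.03, 19.3 and 24.5 CPM in the shZdhhc17 replicates, against 6.76, 31.2 and 84.3 CPM in the shSCR replicates. In both genes replicate 1 of either group was low, shSCR replicate 3 was far above all others, and the remaining 3 libraries lay between. Gbp4 had the widest spread of the family, with 19.7, 90.5 and 120 CPM in the shZdhhc17 replicates against 36.4, 193 and 568 CPM in the shSCR replicates. Its highest library was 28.9 times its lowest.

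Gbp3 and Gbp7 followed the same order of libraries over a narrower range than Gbp4 and Gbp5. Gbp3 reached 23.3, 55.4 and 70.8 CPM in the shZdhhc17 replicates, against 35.4, 82.6 and 212 CPM in the shSCR replicates. Gbp7, which has been tied to assembly of the phagocyte oxidase in mouse macrophages, showed 33.3, 84.4 and 102 CPM in the shZdhhc17 replicates, against 40.2, 111 and 250.1 CPM in the shSCR replicates. The highest library stood 9.11-fold above the lowest for Gbp3 and 7.50-fold for Gbp7. Gbp6 was the least abundant, with 1.38, 4.90 and 8.64 CPM in the shZdhhc17 replicates against 2.94, 7.06 and 18.9 CPM in the shSCR replicates. It rests on 22 to 339 reads per library. Gbp2 with Gbp2b, and Gbp6 with Gbp10, are close copies of each other, and the division of reads between them is uncertain.

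The immunity-related GTPases divide into regulators and an effector. Irgm1, Irgm2 and Igtp (also called Irgm3) are regulators with a GMS sequence in their nucleotide-binding loop, which keep effectors such as Iigp1 (Irga6) inactive on the cell's own membranes. Iigp1 is the effector that loads onto and ruptures pathogen vacuoles. Igtp had 32.7, 120 and 162 CPM in shZdhhc17 replicates 1, 2 and 3, against 41.3, 161 and 534 CPM in shSCR replicates 1, 2 and 3. Irgm1 measured 55.5, 133 and 165 CPM in the shZdhhc17 replicates, against 78.2, 174 and 393 CPM in the shSCR replicates. Irgm2 reached 35.5, 122 and 145 CPM in the shZdhhc17 replicates, against 43.6, 130.2 and 284 CPM in the shSCR replicates. All 3 regulators were lowest in replicate 1 of each group and highest in shSCR replicate 3. Iigp1 showed 136, 382 and 433 CPM in the shZdhhc17 replicates, against 194, 369 and 637 CPM in the shSCR replicates. It was the only member in which both shZdhhc17 replicates 2 and 3 stood above shSCR replicate 2, and its range over the 6 libraries, 4.70-fold, was the narrowest of the 10.

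**Figure D2:**
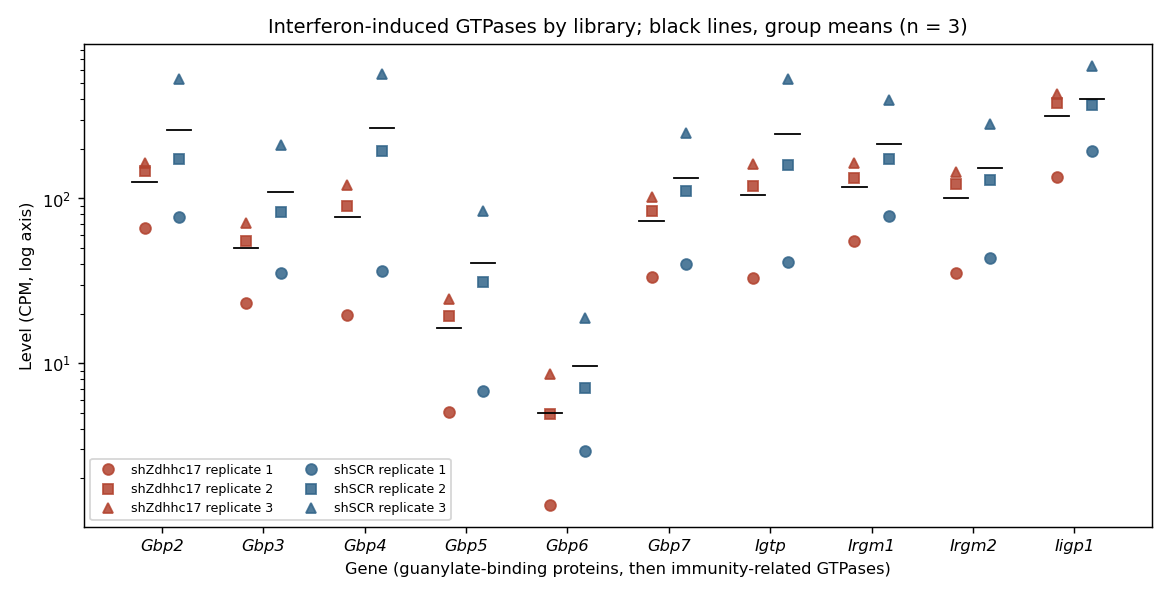
Level of each of the 10 GTPase genes in each library (CPM, log axis), with shZdhhc17 in red left of shSCR in blue, a marker shape per replicate number and a black line for each group mean (n = 3). For every gene replicate 1 of both groups is at the bottom and shSCR replicate 3 at the top, and the groups overlap.

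Per length, the effector Iigp1, the regulator Igtp and Gbp2 were the most abundant transcripts. Levels per length are TPM, from counts per kilobase of annotated exon, with exons of the GENCODE M21 annotation of GRCm38. Iigp1 had 151 ± 73.7 TPM in shZdhhc17 and 222 ± 139 TPM in shSCR metastases (SD, n = 3 each). Igtp had 144 ± 89.2 TPM in shZdhhc17 and 402 ± 434 TPM in shSCR, and Gbp2 139 ± 56.0 TPM in shZdhhc17 and 340 ± 327 TPM in shSCR. By the median over the 6 libraries the order ran Iigp1, Igtp, Gbp2, Irgm2, Irgm1, Gbp3, Gbp7, Gbp4, Gbp5 and Gbp6. The first 3 do not differ beyond their spread: Iigp1 stood above Igtp in 3 of 6 libraries and Igtp above Gbp2 in 4 of 6. Gbp2 stood above Irgm2, Irgm1 above Gbp3, Gbp3 above Gbp7, Gbp4 above Gbp5 and Gbp5 above Gbp6 in 6 of 6 libraries. Irgm2 stood above Irgm1 in 5 of 6, and Gbp7 above Gbp4 in 4 of 6. Gbp6 had a median of 3.07 TPM, against 193 TPM for Iigp1.

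Across the 10 genes the order of the libraries was nearly the same. ShZdhhc17 replicate 1 was the lowest library for 10 of 10 genes, shSCR replicate 1 the second lowest for 10 of 10 and shSCR replicate 3 the highest for 10 of 10. ShSCR replicate 2 was second highest for 6 genes and shZdhhc17 replicate 3 for the other 4 (Gbp6, Igtp, Irgm2 and Iigp1). Summed over the 10 genes, the level was 408, 1158 and 1397 CPM in shZdhhc17 replicates 1, 2 and 3, a 3.43-fold range, against 557, 1433 and 3511 CPM in shSCR replicates 1, 2 and 3, a 6.31-fold range. The median SD of log2(CPM + 1) was 0.97 in shZdhhc17 and 1.32 in shSCR for the 10 genes, against 0.18 in shZdhhc17 and 0.22 in shSCR for all 15567 genes tested. In 9 of the 10 genes the SD was larger in shSCR, the exception being Iigp1 with 0.92 in shZdhhc17 and 0.85 in shSCR.

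Between the groups, no GTPase gene passed the threshold. Of 10 genes, 0 had an adjusted p under 0.05 by edgeR's quasi-likelihood test, where 0% of the 15567 genes tested did, and 0 of the 10 had an unadjusted p under 0.05, where 6.71% of all genes did with a lower level in shZdhhc17. DESeq2 called 0 of the 10 and 1.17% of the 17127 genes to which it gave an adjusted p. Limma voom called 0 of the 10 and 0% of all genes. The log2 fold change was negative in 10 of 10, where it was negative in 49.7% of all genes, with a median of -1.003 against 0.0017 over all genes. The same libraries carry all 10 values, so these are not 10 separate observations. Groups that do not overlap, with shZdhhc17 lower, were found for 0 of the 10 and for 9.62% of all genes.

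By gene, Gbp4 had the largest difference, at -1.79 ± 0.96 (log2 fold change ± SE; edgeR adjusted p = 0.508), and Iigp1 the smallest, at -0.34 ± 0.53 (edgeR adjusted p = 0.823). Gbp5 had -1.32 ± 0.86, Igtp -1.23 ± 0.89, Gbp3 -1.14 ± 0.65, Gbp2 -1.05 ± 0.67 and Gbp6 -0.96 ± 0.77 on the same log2 scale. Irgm1 had -0.87 ± 0.60, Gbp7 -0.86 ± 0.65 and Irgm2 -0.60 ± 0.70. The 6 guanylate-binding protein genes had a median of -1.10 and the 4 immunity-related GTPase genes one of -0.73; the difference between the families was not tested. The SEs ran from 0.53 to 0.96, against a median of 0.21 over all genes. In the authors' deposited table the log2 fold changes of the 10 ran from -1.76 (Gbp4) to -0.31 (Iigp1), with q-values between 0.599 (Gbp4) and 0.888 (Irgm2).

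The size of the difference rested on shSCR replicate 3. Without that library the median log2 fold change of the 10 genes was -0.028 and 7 of 10 were negative (47% of all genes in that fit), and Igtp (0.052), Irgm2 (0.21) and Iigp1 (0.17) turned positive, while Gbp4 stood at -0.58. Without shZdhhc17 replicate 1 the median was -0.61 with 9 of 10 negative (51.8% of all genes), and without shSCR replicate 1 it was -1.43 with 10 of 10 negative (49.1% of all genes). With the mean level of hepatocyte markers as a covariate the median was 0.12 and 2 of 10 were negative, Gbp3 and Gbp4 (47.7% of all genes). That mean level was lowest in shSCR replicate 3, so the covariate and that library cannot be told apart. None of these fits called a member.

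**Figure D3:**
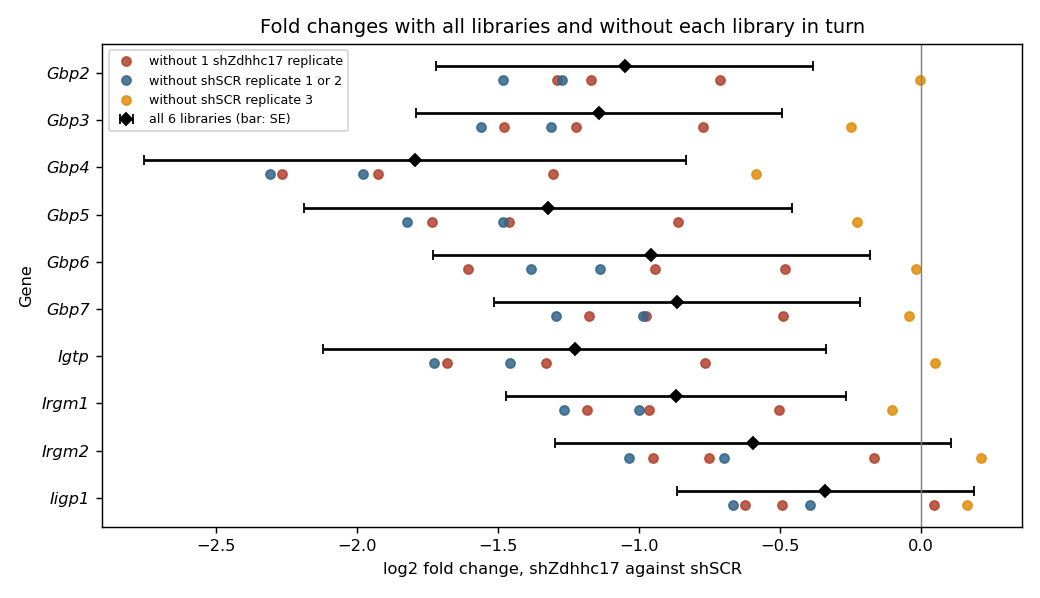
Log2 fold change of each GTPase gene, shZdhhc17 against shSCR, from edgeR with all 6 libraries (black diamonds, bars are SE) and with each library left out (circles). Without shSCR replicate 3 (orange) the values lie between -0.58 and 0.21, to the right of those from all 6 libraries for every gene.

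The members did not move in fixed proportion. Read counts of 2 genes within a library give a ratio that no scaling of libraries changes. Gbp4 over Iigp1 was 0.145, 0.237 and 0.277 in shZdhhc17 replicates 1, 2 and 3, against 0.187, 0.523 and 0.892 in shSCR replicates 1, 2 and 3. Igtp over Irgm1 was 0.590, 0.898 and 0.983 in the shZdhhc17 replicates, against 0.528, 0.922 and 1.36 in the shSCR replicates. Both ratios were lowest in replicate 1 of each group and highest in shSCR replicate 3. Gbp5 over Gbp2 was 0.0765, 0.133 and 0.148 in the shZdhhc17 replicates, against 0.0874, 0.179 and 0.159 in the shSCR replicates, and was highest in shSCR replicate 2. Iigp1 supplied 33.2%, 33.0% and 31.0% of the summed CPM of the 10 genes in the shZdhhc17 replicates, against 34.9%, 25.8% and 18.1% in the shSCR replicates. Gbp4 supplied 4.83%, 7.82% and 8.59% in the shZdhhc17 replicates, against 6.53%, 13.5% and 16.2% in the shSCR replicates. Gbp7 kept a share of 7.12% to 8.18% in all 6 libraries. The pairs were chosen after their values were seen.

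Ifng, the gene of interferon gamma, was at the edge of detection. It had 0, 6 and 5 reads in shZdhhc17 replicates 1, 2 and 3, against 0, 11 and 58 reads in shSCR replicates 1, 2 and 3. The libraries with 0 reads were those with the lowest GTPase levels in each group, and the library with most reads was the one with the highest. A count of 0 allows up to 3 reads, a level of 0.189 CPM in shZdhhc17 replicate 1 and 0.164 CPM in shSCR replicate 1, and this covers counting error only. Ifng did not pass the filter on low counts and was not tested, nor was its part in the GTPase levels. Of 14 ligand and inducer genes listed, 6 were in the table and 3 were tested, all with a negative log2 fold change. Il27, a subunit of interleukin 27, had -1.70 ± 0.83 (edgeR adjusted p = 0.481), while Il18 had -0.0077 ± 0.17 and Ebi3 -0.061 ± 0.31. The value of Il27 rests on few reads, 4, 4 and 14 in the shZdhhc17 replicates against 6, 27 and 51 in the shSCR replicates. Il12a and Il12b, the subunits of interleukin 12, had 0 to 8 reads per library. The type I and III interferon genes listed were not matched in the table and are not analysed here.

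Receptors and kinases of the pathway varied far less than the GTPases. Of 7 genes, 4 had a negative log2 fold change, 0 passed the threshold, and the median was -0.011. Ifngr1, the ligand-binding chain of the interferon gamma receptor, averaged 81.4 ± 6.89 CPM in the shZdhhc17 group and 77.6 ± 2.51 CPM in the shSCR group (SD, n = 3 each). The highest library was 1.18 to 1.95 times the lowest across the 7 genes, against 4.70 to 28.9 times across the GTPases. Jak2, a kinase of the interferon gamma receptor, was the gene of this list with the smallest p. It had 85.5, 88.3 and 96.9 CPM in shZdhhc17 replicates 1, 2 and 3, against 138, 144 and 166 CPM in shSCR replicates 1, 2 and 3. Its groups did not overlap, but its log2 fold change of -0.73 ± 0.13 missed the threshold (edgeR adjusted p = 0.307).

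Irf1, the gene of a factor that binds ISREs, followed the order of libraries seen in the GTPases at its ends. Of 10 transcription factor genes 9 had a negative log2 fold change (median -0.83), as did 49.7% of all genes, and 0 passed. Irf1 had 113, 170 and 190 CPM in shZdhhc17 replicates 1, 2 and 3, against 153, 193 and 441 CPM in shSCR replicates 1, 2 and 3 (log2 fold change -0.74 ± 0.41, edgeR adjusted p = 0.515). It was lowest in shZdhhc17 replicate 1, next lowest in shSCR replicate 1 and highest in shSCR replicate 3. Irf2, a relative of Irf1, averaged 67.5 ± 9.85 CPM in shZdhhc17 metastases and 63.8 ± 10.4 CPM in shSCR metastases. Of 16 tested interferon gamma targets that are not GTPases, 16 had a negative log2 fold change (49.7% of all genes) and 0 passed. Their median was -0.97, and the same libraries carry all 16 values. Ido1, which encodes an enzyme that degrades tryptophan, had -3.54 ± 1.38, and Ly6a, a surface antigen gene, -2.52 ± 0.98. Ly6a had 16.0, 21.7 and 36.0 CPM in the shZdhhc17 replicates against 13.0, 83.8 and 327 CPM in the shSCR replicates. Ido1 rests on few reads, 2, 9 and 11 in the shZdhhc17 replicates against 2, 44 and 249 in the shSCR replicates. Among 6 feedback inhibitors 5 were negative (median -0.45), as were 49.7% of all genes, and 0 passed. Isg15 had the smallest p of this list, with -1.12 ± 0.39 (edgeR adjusted p = 0.390). Socs1, which blocks JAK kinases, had -1.83 ± 0.99, with 116 CPM in shSCR replicate 3 and 5.67 to 18.8 CPM elsewhere. Socs3 had 0.14 ± 0.12.

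**Figure D4:**
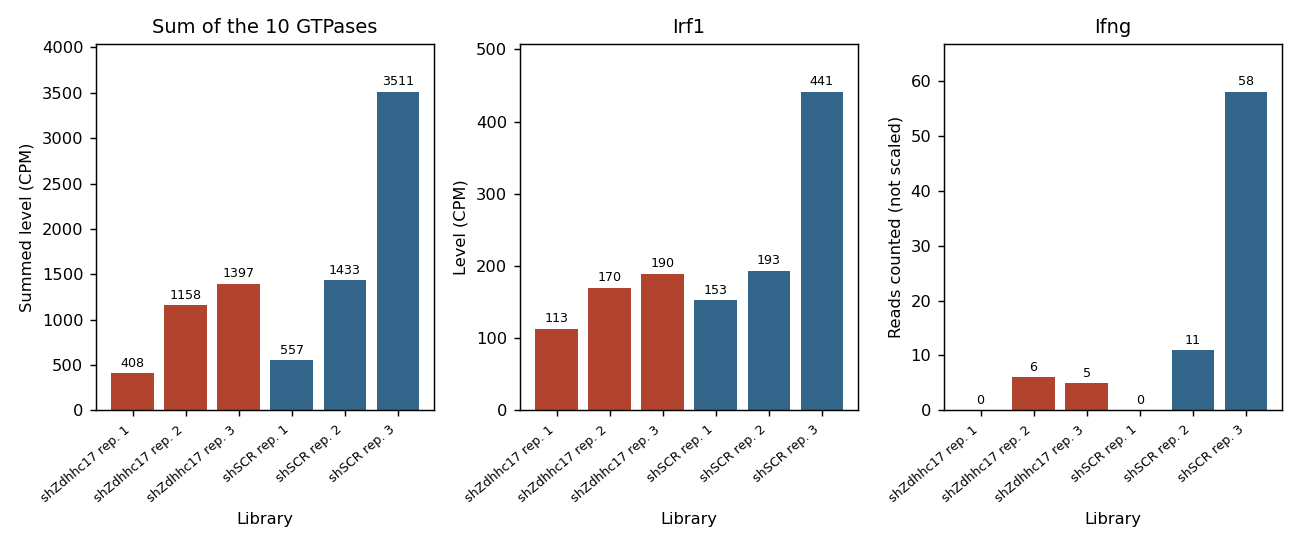
Summed level of the 10 GTPases (CPM), level of Irf1 (CPM) and unscaled reads of Ifng in each library, with shZdhhc17 in red left of shSCR in blue. In all 3 panels replicate 1 of both groups is lowest and shSCR replicate 3 highest; Ifng has 58 reads there and 0 to 11 elsewhere.

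Other interferon-induced GTPases, outside the 10 members, were mostly negative too. Of 26 symbols listed 20 were in the table and tested. Among these, 18 had a negative log2 fold change (median -0.83), as did 49.7% of all genes, and 0 passed over all genes. At an unadjusted p under 0.05 by edgeR 3 were lower in shZdhhc17, as were 6.71% of all genes. The 3 were Gbp9, the dynamin-like GTPase gene Mx1, and Gbp8. Gbp9 had -1.41 ± 0.48 (edgeR adjusted p = 0.378) and Mx1 -1.49 ± 0.51 (edgeR adjusted p = 0.382). Gbp8 had -1.71 ± 0.71 (edgeR adjusted p = 0.427). Gbp9 showed 27.3, 54.2 and 57.0 CPM in shZdhhc17 replicates 1, 2 and 3, against 56.0, 110 and 204 CPM in shSCR replicates 1, 2 and 3. Its lowest shSCR library lay just below its highest shZdhhc17 library. The 2 with a positive value were Gm4951 (0.17 ± 0.39) and Gvin3 (0.19 ± 0.69). Tgtp1 and Tgtp2, near-identical T-cell-specific GTPase genes, had -0.30 ± 0.80 and -1.06 ± 0.85, and how reads were split between them is uncertain. Of 8 tested GTPase genes that do not depend on interferon, such as the atlastins and dynamins, 3 were negative (median 0.074), 0 passed, and the highest library was 1.13 to 1.83 times the lowest.

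Partners of the GTPases showed no common direction. Of 20 genes for autophagy and ubiquitin-like proteins that work with them, 10 were negative and 10 positive (median 0.012), and 0 passed. These genes were not alike in spread: the highest library was 1.23 to 50.4 times the lowest, with a median of 1.44. Trim21, a ubiquitin ligase gene, had the smallest p of this list (-0.66 ± 0.28; edgeR adjusted p = 0.437). Of 7 inflammasome genes 6 were negative (median -0.35) and 0 passed, with -0.86 ± 0.29 for the DNA sensor Aim2 (edgeR adjusted p = 0.378) and -0.40 ± 0.15 for Il1b (edgeR adjusted p = 0.405). Aim2 had 7.23, 6.69 and 7.98 CPM in shZdhhc17 replicates 1, 2 and 3, against 8.18, 13.2 and 18.4 CPM in shSCR replicates 1, 2 and 3, and its groups did not overlap.

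Markers of some immune cell types followed part of the order of libraries seen in the GTPases. In bulk tissue, fewer cells of a type and less RNA per cell cannot be told apart. The 7 T cell markers summed to 6.29, 12.7 and 10.1 CPM in shZdhhc17 replicates 1, 2 and 3, against 7.74, 37.5 and 31.8 CPM in shSCR replicates 1, 2 and 3. The 7 natural killer and cytotoxic markers summed to 6.73, 15.9 and 20.2 CPM in the shZdhhc17 replicates, against 8.28, 32.3 and 44.0 CPM in the shSCR replicates. Both lists were lowest in replicate 1 of each group. Several markers on both lists rest on few reads. Cd8b1 (2 to 72 reads) and Klrb1c (1 to 9 reads) did not pass the filter on low counts but are part of the sums. The T cell sum was highest in shSCR replicate 2, not in shSCR replicate 3, where the GTPases peaked. The 7 dendritic cell markers summed to 27.0, 43.3 and 39.8 CPM in the shZdhhc17 replicates, against 45.1, 82.7 and 110.2 CPM in the shSCR replicates. In this sum shSCR replicate 1, second lowest for the GTPases, stood above every shZdhhc17 library. The largest part came from 1 gene, Itgax, with 12.4, 23.7 and 18.3 CPM in the shZdhhc17 replicates. It had 25.3, 49.2 and 69.1 CPM in the shSCR replicates. Groups that do not overlap, with shZdhhc17 lower, were found for 3 of the 7 markers and for 9.62% of all genes. The 8 macrophage and monocyte markers differed less in sum, at 961 to 1213 CPM in shZdhhc17 and 920.1 to 1226 CPM in shSCR. C1qa, C1qb, C1qc and Csf1r supplied most of it. Clec4f had 98.7, 170 and 174 CPM in the shZdhhc17 replicates, against 99.4, 123 and 35.4 CPM in the shSCR replicates. Ly6c2 had 1.38, 2.45 and 4.35 CPM in the shZdhhc17 replicates, against 1.31, 3.92 and 9.15 CPM in the shSCR replicates. Clec4f was thus lowest and Ly6c2 highest in shSCR replicate 3, and both were named after their values were seen. None of the markers on any list was at 0 in a library.

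Other cell types took another course. The 7 neutrophil markers summed to 525, 322 and 754 CPM in shZdhhc17 replicates 1, 2 and 3. In shSCR replicates 1, 2 and 3 they summed to 97.0, 238 and 68.1 CPM. Between the groups this was opposite in direction to the GTPases. Within a group the order of libraries was not the reverse of theirs, with the highest neutrophil sum in shZdhhc17 replicate 3. The 6 hepatocyte markers summed to 30083 to 41166 CPM in shZdhhc17 and 14592 to 36343 CPM in shSCR, with the lowest sum in shSCR replicate 3. The 5 fibroblast and stellate cell markers summed to 2951 to 3634 CPM in shZdhhc17 and 3749 to 6726 CPM in shSCR, with the highest sum in shSCR replicate 3. The fibroblast sum was carried by the collagen genes Col1a1 and Col3a1, and the other 3 markers (Pdgfrb, Pdgfra and Dcn) were not highest in that library; these genes were named after their values were seen. The 7 genes listed as mammary carcinoma markers summed to 1598 to 2782 CPM in shZdhhc17 and 1940 to 2869 CPM in shSCR. The keratin genes Krt18 and Krt8 supplied most of this sum. By gene, 5 of the 7 had a negative log2 fold change, as did 49.7% of all genes, and 2 a positive one. The median was -0.51, and 0 passed the threshold. The 5 endothelial markers summed to 222 to 354 CPM in shZdhhc17 and 245 to 289 CPM in shSCR, and the 4 B cell markers to 4.28 to 10.0 CPM in shZdhhc17 and 3.597 to 8.00 CPM in shSCR. The part of these cell types in the GTPase levels was not tested. The centred mean of the hepatocyte markers was -1.02 in shSCR replicate 3, where that of the GTPases was 1.75. The fit with the hepatocyte covariate therefore cannot separate hepatocyte content from that library.

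**Figure D5:**
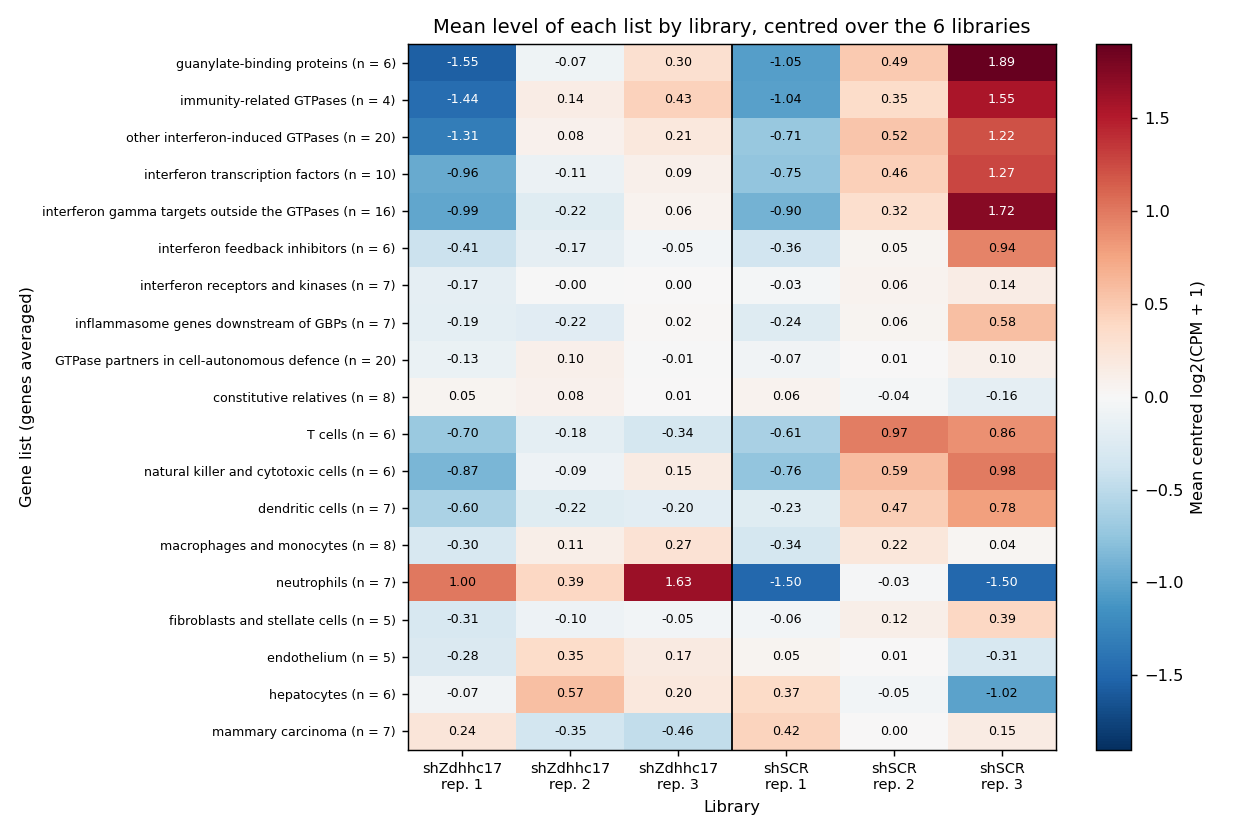
Mean log2(CPM + 1) of each gene list in each library, centred on the list's own mean over the 6 libraries, with shZdhhc17 libraries left of shSCR libraries. The GTPase rows run from -1.55 in shZdhhc17 replicate 1 to 1.89 in shSCR replicate 3, while receptors, autophagy partners and constitutive relatives lie between -0.17 and 0.14 in every library.

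Genes outside the set with the most similar profile were largely other interferon targets. Likeness was measured as the root mean square difference between centred log2(CPM + 1) profiles over the 6 libraries, against the mean profile of the 10 members, among 11887 genes with a mean of at least 5 CPM. Among the 10 nearest were Slamf8 (0.118), Gbp2b (0.154), Zbp1 (0.185), Cd274 (0.205), Tgtp2 (0.227), Tap1 (0.239), Gm12185 (0.240), 9330175E14Rik (0.248) and Hk3 (0.257). The members themselves lay between 0.117 (Gbp7) and 0.515 (Gbp4) from their mean, and the median gene 1.09. Of the nearest genes named, 3 stood on the list of other interferon-induced GTPases (Gbp2b, Tgtp2 and Gm12185) and 3 on that of interferon gamma targets (Zbp1, Cd274 and Tap1). Slamf8, a myeloid receptor gene, measured 2.83, 7.46 and 10.7 CPM in shZdhhc17 replicates 1, 2 and 3, against 3.82, 11.3 and 32.3 CPM in shSCR replicates 1, 2 and 3. Its lowest and highest libraries were those of the GTPases.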

How the data were processed

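For 6 libraries, the deposited values are raw, unscaled counts of reads by gene, with a DESeq2 table of log2 fold changes with p-values and q-values, per the file headers. The submitters' processing notes list DESeq2 1.34.0, HTSeq, STAR 2.6.1 and FastQC 0.11.8, giving no roles, and the build GRCm39. The kit marks strand. Not given in the sources used here are the strand setting of the counting and its treatment of reads shared by paralogs.

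The counts were fitted with edgeR 4.0.16 in R 4.3.3 (TMM, filterByExpr, robust quasi-likelihood F test, two-sided), which left 15567 of 24167 genes; p-values were adjusted by Benjamini-Hochberg over all of them, with a threshold of 0.05. The common dispersion was 0.0552 on 4 residual degrees of freedom. SEs come from the fold change and its F statistic. The script was tested on simulated counts. Exonic lengths were matched for 23174 genes. Alternatives were DESeq2 1.42.0, limma 3.58.1 (voom), other scalings and filters, a replicate block, a hepatocyte covariate and leaving out each library. The lists hold 190 genes, 17 of them without a match. Named genes are the members, Zdhhc17, genes of the pathway lists (beyond the core lists at most 4 with the smallest p), leading markers and the 10 most similar profiles. The members and lists were chosen with earlier results of these data known. No 2 libraries of a group agreed within sampling noise. A pathway gene is not reported by name here.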

Additional observations from a re-analysis of the deposited data

How the results depend on the processing

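None of the 10 GTPase genes was called under any of the 14 alternatives. All 10 log2 fold changes were negative with DESeq2 size factors, library totals alone (which move the median of all genes to -0.13), no filter on low counts, a minimum of 10 counts in 3 libraries, DESeq2, limma voom and the replicate block, with medians between -1.20 and -0.77. Of 140 recomputed values 12 changed sign. With the hepatocyte covariate these were Gbp2 (0.14), Gbp5 (0.087), Gbp6 (0.11), Gbp7 (0.12), Igtp (0.39), Irgm1 (0.0043), Irgm2 (0.37) and Iigp1 (0.18). Without a single library Igtp ranged from -1.73 to 0.052, Irgm2 from -1.03 to 0.21 and Iigp1 from -0.67 to 0.17, the positive values arising without shSCR replicate 3, and for Iigp1 also without shZdhhc17 replicate 1 (0.047). The cause was not tested. Over all genes the count of calls was 0 by edgeR (1780 at an unadjusted p under 0.05), 3 without a filter, 3 with the hepatocyte covariate, 201 with DESeq2, and 0 to 1 without a single library. With the replicate block it was 0, the members' median was -0.77, 6 members were lower at an unadjusted p under 0.05 (6.48% of all genes in that fit), and the adjusted p of the 10 ran from 0.458 to 0.551. Without shSCR replicate 1, 6 members were also lower at an unadjusted p under 0.05, as were 11.1% of all genes (adjusted p 0.225 to 0.512 over the 10). The numbers are not known to pair libraries: over all tested genes the deviations of same-numbered libraries correlated at -0.059, 0.32 and -0.046. Levels per coding length were not run. At 22 reads in its lowest library, depth limits Gbp6 most.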
